A study of Mus musculus with 10 samples.

Results

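The comparison describes the response of the jejunal epithelium, 4 days after induction, to loss of MYO5B: 4 MYO5B-knockout mice were set against 3 uninduced control mice. Its members are the 15729 of 35275 listed genes whose FPKM averaged 0.1 or more across the 10 libraries of the series, and 7 of those 10 libraries are compared. All mice were C57BL/6 animals labelled as male, a label that the reads of 2 of the 10 libraries went against, with floxed Myo5b alleles and a tamoxifen-inducible Cre recombinase, VillinCreERT2, whose villin promoter is active throughout the intestinal epithelium. Control mice (2, 4 and 5) received corn oil only. MYO5B-knockout mice (3, 5, 6 and 7) received a single 2 mg dose of tamoxifen and then daily injections of the vehicle, BSA in PBS, so tamoxifen and the vehicle injections differ between the groups together with the gene. The remaining 3 mice had lysophosphatidic acid (LPA) at 3 mg/kg after tamoxifen and entered the model only to estimate the spread between mice, and 1 of them, whose description also names the vehicle, was placed by its title. Epithelial cells were shaken from the jejunum in EDTA and their poly-A RNA was sequenced. Each library is one mouse.

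MYO5B is a motor protein that carries recycling endosomes marked by RAB11 and RAB8 along actin to the apical surface of enterocytes. Mutations in the human gene cause microvillus inclusion disease, in which transporters and digestive enzymes fail to reach the brush border and infants have intractable diarrhea. Enterocytes are made in crypts, where cells divide, and acquire digestive enzymes, nutrient transporters and detoxifying enzymes as they move up the villus. Damaged epithelium can return to a state with fetal genes, EGF family ligands and annexins.

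The promoters of 6 called genes are shown for their short motifs, AP-1 in genes that rose and HNF4 in genes that fell. All motifs were searched for in both directions: the TATA, CCAAT and GC boxes, the E-box, AP-1, E2F, HNF1, HNF4, CDX and GATA. AP-1 is a family of transcription factors induced by growth factors and injury, and HNF4 is a nuclear receptor of mature enterocytes. Each window runs from 250 bases before to 50 bases after a start site in RefSeq (GRCm38.p6), is written in the direction of the gene, and has the motif in capitals. Anxa10 (chr8:62123144-62123443, minus strand), Plaur (chr7:24462233-24462532, plus strand) and Sprr1a (chr3:92485832-92486131, minus strand) are regenerative genes that rose and hold TGACTCA or TGAGTCA. Cyp3a25 (chr5:146009569-146009868, minus strand) and Cyp2c68 (chr19:39741052-39741351, minus strand), which encode cytochromes P450, and Slc5a11 (chr7:123214616-123214915, plus strand), a sodium-coupled inositol transporter, fell and hold CAAAGTCCA or CAAAGGTCA on either strand.
Anxa10: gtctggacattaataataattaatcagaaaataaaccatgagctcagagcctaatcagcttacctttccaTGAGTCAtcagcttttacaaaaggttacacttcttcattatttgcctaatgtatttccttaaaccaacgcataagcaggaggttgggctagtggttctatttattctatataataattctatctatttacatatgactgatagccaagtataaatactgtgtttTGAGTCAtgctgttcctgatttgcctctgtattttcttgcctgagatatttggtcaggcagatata
Plaur: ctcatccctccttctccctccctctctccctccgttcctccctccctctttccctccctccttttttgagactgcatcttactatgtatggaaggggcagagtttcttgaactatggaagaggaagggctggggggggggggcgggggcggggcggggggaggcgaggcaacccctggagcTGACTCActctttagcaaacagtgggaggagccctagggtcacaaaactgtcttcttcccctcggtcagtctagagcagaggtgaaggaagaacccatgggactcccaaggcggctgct
Sprr1a: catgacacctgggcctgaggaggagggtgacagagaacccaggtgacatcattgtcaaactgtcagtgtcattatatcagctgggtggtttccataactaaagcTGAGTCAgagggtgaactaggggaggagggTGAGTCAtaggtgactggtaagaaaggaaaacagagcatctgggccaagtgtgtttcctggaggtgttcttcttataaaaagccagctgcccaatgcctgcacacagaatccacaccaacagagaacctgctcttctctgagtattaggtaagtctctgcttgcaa
Cyp3a25: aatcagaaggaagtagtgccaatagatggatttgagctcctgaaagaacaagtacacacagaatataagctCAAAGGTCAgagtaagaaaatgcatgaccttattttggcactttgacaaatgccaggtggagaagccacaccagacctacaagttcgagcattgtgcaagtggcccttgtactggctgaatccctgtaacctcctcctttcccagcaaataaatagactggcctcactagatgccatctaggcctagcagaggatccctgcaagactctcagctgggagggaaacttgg
Cyp2c68: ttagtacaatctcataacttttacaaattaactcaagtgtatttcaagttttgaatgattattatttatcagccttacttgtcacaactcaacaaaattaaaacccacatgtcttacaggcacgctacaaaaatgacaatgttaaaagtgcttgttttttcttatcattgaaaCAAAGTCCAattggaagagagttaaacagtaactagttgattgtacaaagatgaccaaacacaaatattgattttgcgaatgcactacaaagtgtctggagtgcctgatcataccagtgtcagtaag
Slc5a11: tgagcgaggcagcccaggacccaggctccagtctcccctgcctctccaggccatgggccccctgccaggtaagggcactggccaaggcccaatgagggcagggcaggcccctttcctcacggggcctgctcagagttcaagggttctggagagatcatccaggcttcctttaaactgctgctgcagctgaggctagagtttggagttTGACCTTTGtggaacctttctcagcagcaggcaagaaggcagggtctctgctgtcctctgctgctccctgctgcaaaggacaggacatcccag

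Of the 15719 symbols tested, 10387 had an entry, with 13234 windows in all. The HNF4 letters occurred in 7 of the 122 windows of genes called lower (5.74%), in 0 of the 163 windows of genes called higher, and in 0.975% of all windows. The genes were Ccl6, Cyp2c68, Cyp3a25, Fhl1, H2-T3 and Slc5a11, and Cyp3a25 counts with 2 windows that start 1 base apart. Among genes called by edgeR the share was 4.74% of 253 windows of lower genes and 0 of 179 windows of higher genes. AP-1 letters occurred in 6.75% of the windows of genes called higher and 6.56% of those called lower, against 4.21% of all. By edgeR the shares were 6.15% and 4.35%. The GC box GGGCGG was held by 40.2% of the windows of lower genes, 61.3% of those of higher genes and 58.9% of all, and by edgeR by 48.6% and 57%. For the E-box CACGTG the shares were 14.8%, 9.2% and 9.5% in the same order. The CCAAT box was held by 45.1%, 41.1% and 37.2%, the TATA box by 9.84%, 9.82% and 7.99%, and E2F letters by 2.46%, 1.84% and 2.66%. For CDX the shares were 5.74%, 5.52% and 4.46%, for GATA 4.1%, 4.29% and 3.47%, and for HNF1 0%, 0% and 0.317%. A match of letters describes the sequence and was not tested.

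In control mice 2, 4 and 5 the targeted gene, Myo5b (ENSMUSG00000025885), had 16.5, 32 and 26.1 FPKM. The level was 10.5, 12.2, 13.1 and 13.6 FPKM in MYO5B-knockout mice 3, 5, 6 and 7. All 4 of the latter lay under the lowest control library, but transcript remained in all of them. The difference did not pass the threshold of an adjusted p of 0.05 (log2 fold change -0.96, SE 0.28, limma's adjusted p = 0.115), and passed it when control mouse 2 and MYO5B-knockout mouse 3 were left out (-1.15, adjusted p = 0.0185) and by edgeR on the reads (-1.22, adjusted p = 0.0268).

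Between 10949420 and 22556682 reads per library lay on genes in the 7 mice compared. Control mouse 2 and MYO5B-knockout mouse 3 gave libraries that stood apart, with 12242 and 12601 genes detected against 17309 to 18267, and 17.4% and 18.0% of reads on mitochondrial genes against 2.06% to 2.53%. Values without both are called the 8-library fit below. MYO5B-knockout mouse 3 also held Xist at 8.41 FPKM and had 0 reads for 4 Y chromosome genes, against the label of a male mouse, and 1 LPA library likewise had Xist reads and 0 reads for these Y genes. Markers of other cells moved with the groups. All 15 tested markers of T lymphocytes were lower in MYO5B-knockout mice, with a summed level of 389, 369 and 507 FPKM in control mice and 54.2, 15.5, 65.9 and 151 FPKM in MYO5B-knockout mice. For B lymphocytes and plasma cells the sums were 10763, 1163 and 1898 FPKM and 1422, 77.6, 174 and 197 FPKM. No T lymphocyte marker was without reads in either group. The part of these cells in the results was not tested. Of the 12 enterocyte markers 0 were called by limma (2 at an unadjusted p under 0.05, 0 by edgeR and 3 by DESeq2), and they summed to 43527, 42279 and 54380.0 FPKM and 22450.0, 31354, 36871 and 40797 FPKM. Of 15 enteroendocrine markers Sst, or somatostatin, fell (4 at an unadjusted p under 0.05, 1 by edgeR and 3 by DESeq2). Of 11 tuft cell markers Alox5ap, of leukotriene synthesis, fell (adjusted p = 0.088 by edgeR). In all, 10 of the 11 tuft cell markers were lower, with a median of -1.39. Of these 11, 6 had an unadjusted p under 0.05. The 8-library fit called 4 of the 11 lower, edgeR 1 and DESeq2 6. Limma called 0 of 10 goblet cell, 10 Paneth cell, 10 stem cell and 13 myeloid markers, of which 2, 1, 2 and 4 had an unadjusted p under 0.05, edgeR called 0 of them and DESeq2 called 3, 0, 2 and 3. Nor did limma call markers of neurons and glia or erythrocytes (5 and 4 tested). Of all 15729 genes tested, 2764 had an unadjusted p under 0.05 by limma, edgeR called 443 and DESeq2 1854. Endothelial, fibroblast and smooth muscle markers each summed to at most 11.4 FPKM in every library, and 7 of the 10 pancreatic acinar markers had 0 reads. In RNA of mixed cells, fewer cells of a type and less RNA per cell cannot be told apart.

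On the log2(FPKM + 0.1) scale, which understates changes of genes near 0.1 FPKM, 316 genes (2.01% of those tested) differed between MYO5B-knockout and control mice at limma's adjusted p of 0.05. Genes are said to be called, to rise or to fall by this test, unless another is named. Of these, 177 (1.13%) rose and 139 (0.884%) fell. Changes were large: the median size was 2.28 for genes that rose and 2.69 for genes that fell, and 208 of the 316 exceeded 2. In 316 of 316 genes the ranges of the groups were apart, as in 17.2% of all genes tested. Of all genes tested, 63.4% had a positive log2 fold change, and the median was 0.29. Median-ratio scaling of the libraries lowered that to 0.04 and turned the split into 223 higher and 375 lower genes, and all 264 of the 316 genes that were called under both kept their direction. The 8-library fit called 403 genes higher (2.56%) and 375 lower (2.38%), among them 263 of the 316. Their direction could not differ in that fit, as the ranges of the groups were apart. Of the 15729 genes tested, 2764 had an unadjusted p under 0.05 by limma. edgeR called 443 genes and DESeq2 1854. Counts given for lists by these measures stand beside those numbers.

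**Figure D1:**
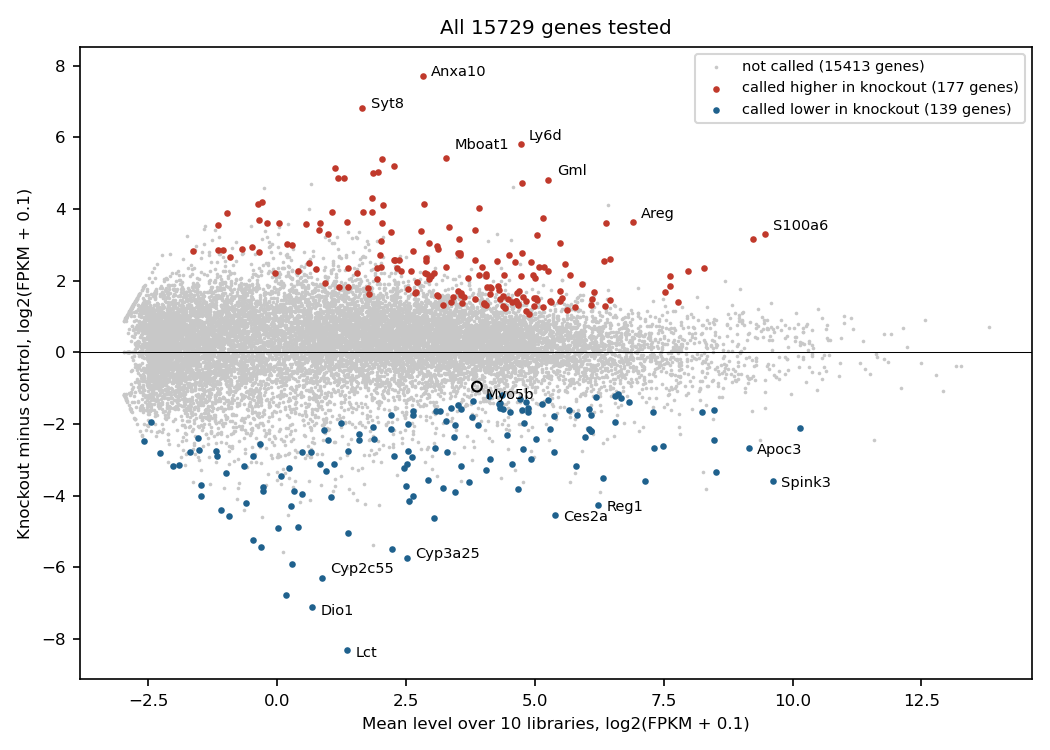
Each dot is one of the 15729 genes tested, with its mean level over 10 libraries on the x axis and the difference between MYO5B-knockout (n = 4) and control mice (n = 3) on the y axis, both in log2(FPKM + 0.1). Red dots are the 177 genes called higher, blue dots the 139 called lower, and Myo5b is ringed at -0.96.

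The largest rise on the log2(FPKM + 0.1) scale was that of Anxa10, which encodes an annexin of the stomach. It was found at 0, 0 and 0.13 FPKM in controls and at 23.6, 56.3, 22.2 and 20.2 FPKM in MYO5B-knockouts (log2 fold change 7.72, SE 0.49, limma's adjusted p = 0.000171). Syt8, a synaptotagmin of membrane fusion, had 0 reads in every control library and was present at 27.9, 15, 7.36 and 5.07 FPKM in the knockouts, or at least 304-fold higher than a level of 3 reads over the control group would be (6.82, limma's adjusted p = 0.00113). Both genes were at or near 0 in every control mouse and expressed in every MYO5B-knockout mouse. By edgeR the log2 fold change of Syt8 was the larger, 11.6 against 8.92 for Anxa10. Prl6a1, of the prolactin family, also had 0 control reads and was at least 29.7-fold higher (limma's adjusted p = 0.00566). Paqr8, a membrane progestin receptor, rose from 0.287 ± 0.167 to 13.3 ± 3.55 FPKM (SD, n = 3 and 4; 5.19, limma's adjusted p = 0.000524). S100a5, a calcium-binding protein, and Ankrd22 rose by 5.16 and 4.86 on the log2 scale. Lrg1, a secreted glycoprotein of the acute phase, rose by 5.05 (adjusted p = 0.0376), and was not called in the 8-library fit (adjusted p = 0.0659).

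A group of neighbours on chromosome 15 was among the 15 largest rises. Ly6d (74762056 to 74763620) and Gml (74813452 to 74818815), which encode GPI-anchored proteins of the LY6 family, and Hemt1 (74819071 to 74834871) lie in this order. The gap is 49831 bases from Ly6d to Gml, and whether other genes lie in it was not examined. It is 255 bases from Gml, on the minus strand, to Hemt1, on the plus strand. Gml was found at 9.18, 2.65 and 1.19 FPKM in controls and at 126, 66.6, 64.5 and 125 FPKM in MYO5B-knockouts (log2 fold change 4.82, SE 0.58, limma's adjusted p = 0.00406). Hemt1 showed a like order over the mice, with 8.4, 1.29 and 0.919 FPKM and 77.8, 51.1, 40.9 and 80.5 FPKM (4.72, limma's adjusted p = 0.0071). Ly6d varied more, from 16.1 FPKM in MYO5B-knockout mouse 5 to 294 FPKM in mouse 3 (5.81, limma's adjusted p = 0.0274). By edgeR neither Ly6d (adjusted p = 0.0736) nor Hemt1 (adjusted p = 0.0501) was called. Reads that run from one neighbour into the next were not separated here.

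Lct, Dio1, Mbl2, Cyp2c55 and Slc5a4a had the largest falls and are described with their functions below. Gsdmc4 and Gsdmc2, closely related gasdermins whose reads the counting could split, changed by -5.43 and -4.40 on the log2 scale, and Gsdmc2 was not called in the 8-library fit (adjusted p = 0.0654) or by edgeR. Dnase1, a secreted nuclease, changed from 45.3 ± 28.9 to 1.79 ± 1.79 FPKM (-5.06, limma's adjusted p = 0.0204). Its locus overlaps Trap1, and whether reads were counted by strand is not given in the sources used here. Otop3, a proton channel, and Apol9b, an apolipoprotein L, changed by -4.90 and -5.48. The most abundant called genes include Spink3, a secreted trypsin inhibitor, at 6163 ± 5714 FPKM in control and 503 ± 429.6 FPKM in MYO5B-knockout mice (-3.59, limma's adjusted p = 0.0448). S100a6, a calcium-binding protein of dividing cells, rose from 127 ± 53.2 to 1570.0 ± 1458 FPKM (3.31, limma's adjusted p = 0.0272), and Smim24 fell from 3413 ± 376 to 822 ± 298 FPKM (-2.13, limma's adjusted p = 0.0209). Spink3 and S100a6 were not called by edgeR (adjusted p = 0.0622 and 0.0649) or after median-ratio scaling (adjusted p = 0.0591 and 0.0683).

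**Figure D2:**
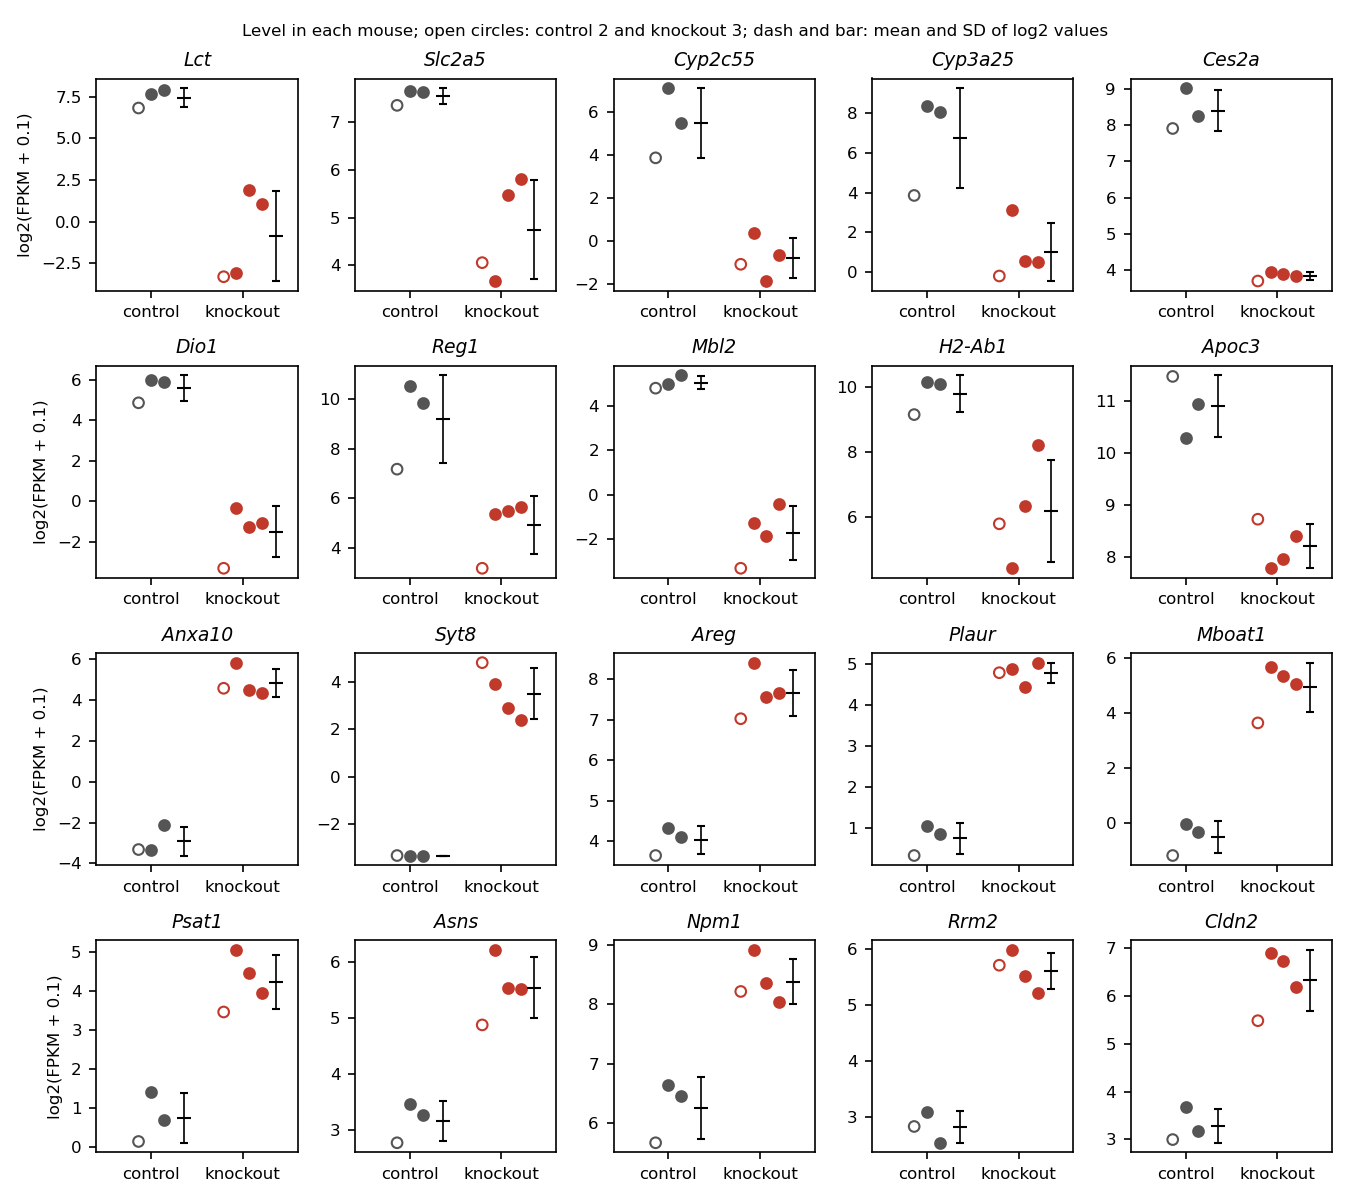
Level of 20 called genes in each mouse, in log2(FPKM + 0.1), with control mice in grey and MYO5B-knockout mice in red. Open circles are control mouse 2 and MYO5B-knockout mouse 3, and the dash with its bar is the mean and SD of each group. As in all 316 called genes, no gene overlaps between the groups, and Syt8 lies at the floor in all 3 control mice.

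Genes of sugar digestion and absorption were lower as a group. All 18 had a negative log2 fold change, with a median of -1.93, and 5 of 18 (27.8%) fell. The list took 0.798% ± 0.404 (SD, n = 3) of the summed FPKM in control mice and 0.365% ± 0.183 (SD, n = 4) in MYO5B-knockout mice. Lct, the lactase gene, fell from 185 ± 64.9 to 1.4 ± 1.73 FPKM (log2 fold change -8.32, SE 1.19, limma's adjusted p = 0.00935). The fructose pathway was represented at uptake and at its first enzyme. Slc2a5, the apical fructose transporter GLUT5, was found at 163, 200.3 and 198 FPKM in controls and at 16.6, 12.7, 44.3 and 55.7 FPKM in MYO5B-knockouts (log2 fold change -2.79, SE 0.49, limma's adjusted p = 0.0218). Khk, which phosphorylates fructose, was present at 813, 465 and 518 FPKM and 146, 62.1, 94.2 and 97.3 FPKM (log2 fold change -2.60, SE 0.36, limma's adjusted p = 0.00818). Like every gene that fell, both were lower in each of the 4 knockouts, least so for Slc2a5 in mice 6 and 7. Slc5a4a, of the sodium-glucose cotransporter family, went from 5.02, 46.1 and 69.8 FPKM to 0, 0.339, 0.81 and 0.733 FPKM (-5.90, limma's adjusted p = 0.0241), and its near copy Slc5a4b changed by -4.04 (limma's adjusted p = 0.0273), so reads may be split between them.

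Peptidases and amino acid transporters were lower for 26 of 28 tested genes, with a median of -1.19, and 2 fell by limma. Ggt1, the glutathione-cleaving gamma-glutamyltransferase, was found at 887, 537 and 614 FPKM in controls and at 211, 138, 229.7 and 286 FPKM in MYO5B-knockouts (-1.67, limma's adjusted p = 0.0323). Naaladl1, a brush border dipeptidase, changed from 167 ± 109 to 17.2 ± 7.59 FPKM (-2.99, limma's adjusted p = 0.0379). In the 8-library fit neither was called (adjusted p = 0.0525 and 0.0592), while that fit called 4 other members lower. edgeR called 8 of the 28 lower, Ggt1 and Naaladl1 among them (adjusted p = 0.0459 and 0.0313), and DESeq2 called 16.

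Fat absorption stood nearer to the background. Of 28 genes, 12 were higher and 16 lower, with a median of -0.18, and 1 fell. Apoc3, an apolipoprotein that inhibits lipoprotein lipase, was found at 2834, 1245 and 1953 FPKM in controls and at 424, 221, 249 and 338 FPKM in MYO5B-knockouts (log2 fold change -2.67, SE 0.45, limma's adjusted p = 0.02). The most abundant members, Fabp1, the fatty acid-binding protein, and Apoa1, the main HDL apolipoprotein, were present at 9717 ± 1599 and 12460.4 ± 1778 FPKM in control and 7399 ± 712 and 6054 ± 1855 FPKM in MYO5B-knockout mice. Neither was called by limma or edgeR, and Apoa1 was by DESeq2 (adjusted p = 0.0223). The list as a whole took 6.62% ± 1.5 of the summed FPKM in control and 4.62% ± 1.47 in MYO5B-knockout mice. In cholesterol and bile acid transport, 1 of 18 genes fell, Nr1h3 (-1.67, limma's adjusted p = 0.0323), which encodes the oxysterol receptor LXR alpha. It was not called by edgeR (adjusted p = 0.0545) or after median-ratio scaling (adjusted p = 0.0548). Soat2, which esterifies cholesterol, was present at 144 ± 26.8 and 93.4 ± 24.1 FPKM, and Slc51a, a subunit of the basolateral bile acid exporter, at 221 ± 7.01 and 112 ± 24.7 FPKM. Limma over all libraries and edgeR called neither, DESeq2 called both (adjusted p = 0.00776 and 0.0415), and the 8-library fit called Slc51a (adjusted p = 0.0364). Of the 18 genes that fit called 3 lower and 1 higher, edgeR 0 and DESeq2 5.

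Fatty acid oxidation and ketogenesis split. Of 29 genes, 3 rose and 1 fell. Acadl, a mitochondrial long-chain acyl-CoA dehydrogenase, rose from 49, 83.2 and 91.6 FPKM to 167, 321, 317 and 275 FPKM (log2 fold change 1.86, SE 0.32, limma's adjusted p = 0.0218). Acot1, a cytosolic acyl-CoA thioesterase, rose by 3.15 (limma's adjusted p = 0.0267). In contrast Decr1, which clears unsaturated fatty acyl-CoA in mitochondria, fell by 1.33 (limma's adjusted p = 0.0342, 0.0508 by edgeR). The list's median was -0.12. Nuclear genes of the respiratory chain were lower in 39 of 44 cases with a median of -0.42. Limma called 0 of them (5 at an unadjusted p under 0.05, 0 by edgeR and 4 by DESeq2, beside 2764, 443 and 1854 of all 15729 genes). The list held 3.65% ± 0.237 of summed FPKM in control and 2.75% ± 0.253 in MYO5B-knockout mice, and its most abundant members were Cox6b1 at 2022 ± 1299 and 1499.7 ± 1286 FPKM and Cox6a1 at 2089 ± 497 and 1015 ± 233 FPKM.

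Genes of detoxifying enzymes were lower in MYO5B-knockout mice. Cytochromes P450 of families 1 to 4 had the lowest median of all 38 functional lists, -1.95, with 19 of 23 genes lower and 4 called (17.4%). Sugar digestion and absorption was close, at -1.93. It was lower than the cytochromes after median-ratio scaling (-2.22 against -2.20) and quantile normalization (-1.94 against -1.80). Cyp2c55, which oxidizes arachidonic acid, was found at 14.4, 137 and 43.9 FPKM in controls and at 0.366, 1.19, 0.172 and 0.533 FPKM in MYO5B-knockouts (log2 fold change -6.29, SE 0.75, limma's adjusted p = 0.00393). Cyp3a25, whose family metabolizes drugs and steroids, went from 14.4, 323 and 260.3 FPKM to 0.776, 8.53, 1.39 and 1.33 FPKM (-5.73, limma's adjusted p = 0.0274). Control mouse 2 was the lowest control for both and lay above every knockout, as all controls did in every gene that fell. Cyp2c68, whose promoter with the HNF4 letters is printed above, changed by -3.57 and Cyp4f13 by -1.67, the latter without a call by edgeR (adjusted p = 0.0508) or after median-ratio scaling (adjusted p = 0.0622). These families hold near-identical copies, so single members are uncertain. In the 8-library fit 12 of the 23 were called lower, with a median of -2.19.

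Among 39 conjugating enzymes and carboxylesterases, 30 were lower (median -0.75), 4 fell and 1 rose. Ces2a, a carboxylesterase that hydrolyses esters and prodrugs, was found at 239, 516 and 306 FPKM in controls and at 12.9, 15.5, 14.7 and 14.3 FPKM in MYO5B-knockouts (log2 fold change -4.54, SE 0.31, limma's adjusted p = 0.000185). All 4 knockouts lay close together and far below the controls. Ces2e and Ces1e changed by -1.60 and -1.65, and Ephx2, the soluble epoxide hydrolase, by -1.66. Akr1b8, an aldo-keto reductase that removes reactive aldehydes, rose from 8.01 ± 6.03 to 70.1 ± 31.7 FPKM (3.29, limma's adjusted p = 0.0283). The 8-library fit called 13 of the 39 lower and 1 higher.

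Hormone and vitamin handling was lower in most genes, of which limma called few. Dio1, the deiodinase that activates thyroid hormone, was found at 29.3, 64.9 and 59.9 FPKM in controls and at 0, 0.686, 0.319 and 0.367 FPKM in MYO5B-knockouts (log2 fold change -7.11, SE 0.71, limma's adjusted p = 0.00132). Rdh7, a retinol dehydrogenase, went from 32.5, 77.6 and 133 FPKM to 2.45, 8.92, 9.27 and 4.78 FPKM (-3.61, limma's adjusted p = 0.02). These were the 2 called by limma among 25 tested, 19 of which were lower, and 10 had an unadjusted p under 0.05. edgeR called 5 of the 25 lower, the 8-library fit 5 lower and 1 higher, and DESeq2 called 13. Of 28 genes of calcium, iron and micronutrient absorption, 4 fell and 1 rose. In this list edgeR called 7 lower and 1 higher, the 8-library fit 7 lower, and DESeq2 called 9. Amn, a subunit of the cobalamin receptor, was present at 247, 107 and 181 FPKM and 52.2, 22.9, 26.3 and 34.3 FPKM (log2 fold change -2.38, SE 0.39, limma's adjusted p = 0.0178). Slc23a1, the vitamin C transporter, was present at 7.24, 19.1 and 30.1 FPKM and 0, 0.364, 1.36 and 1.3 FPKM (-4.87, limma's adjusted p = 0.0288), and its locus overlaps Paip2. The vitamin D receptor gene Vdr and the zinc transporter gene Slc39a5 changed by -1.62 and -1.22. Cybrd1, the iron-regulated ferric reductase, rose by 3.31 from 0.212 ± 0.144 FPKM (limma's adjusted p = 0.031), and was not called in the 8-library fit (adjusted p = 0.0627).

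Ion transport and villus tip enzymes were not among the called changes. None of 34 genes of salt, chloride and water transport and none of 18 genes of purine handling and phosphatases passed the test, by limma over all libraries. At an unadjusted p under 0.05 there were 5 and 5, edgeR called 0 and 1, and DESeq2 4 and 2. Over all 15729 genes tested these 3 measures gave 2764, 443 and 1854. Guca2b, or uroguanylin, was present at 2042 ± 1004 and 2387 ± 586 FPKM in control and MYO5B-knockout mice. Alpi, intestinal alkaline phosphatase, was present at 359 ± 224 and 783 ± 418 FPKM and Ada, adenosine deaminase, at 1289.9 ± 258 and 2397 ± 1007 FPKM, with wide spread in both. Of 41 transcription factors of enterocytes and metabolism, 2 fell by limma, Nr1h3 and Vdr, named above. edgeR called 3 of them lower, the 8-library fit 6, and DESeq2 called 7.

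**Figure D3:**
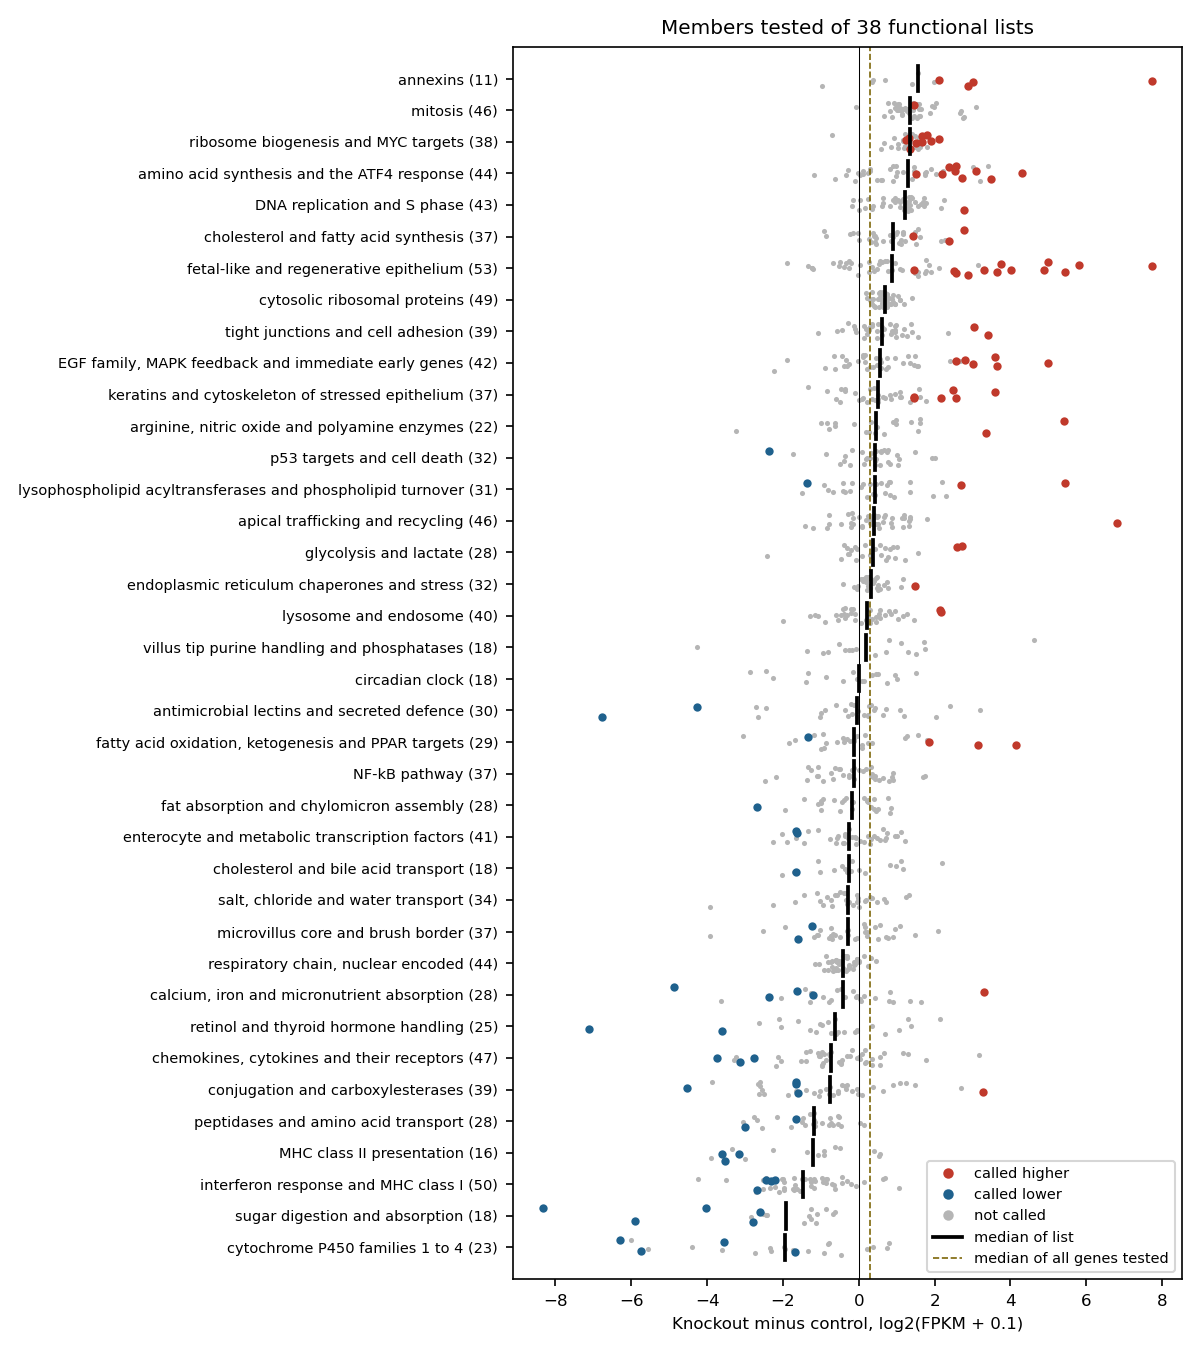
Each dot is a tested member of one of 38 functional lists, placed by its difference between MYO5B-knockout and control mice in log2(FPKM + 0.1), with called genes in red (higher) and blue (lower). The black bar is the list's median and the dashed line the median of all genes tested, 0.29. Medians run from -1.95 for cytochromes P450 to 1.57 for annexins, and the number of genes tested stands in parentheses.

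Of 46 genes of apical trafficking and recycling, the machinery that MYO5B serves, 1 was called (2.17%, beside 2.01% of all genes), Syt8, and the 8-library fit called 3. The median of the list was 0.39, beside 0.29 for all genes. Cdc42, which sets apical polarity, was present at 217 ± 50.7 and 242 ± 16.8 FPKM and Vamp8, a SNARE protein of apical vesicles, at 195 ± 136 and 112 ± 82.9 FPKM. Among 37 genes of the microvillus core, 22 were on the negative and 15 on the positive side (median -0.29). The 8-library fit called 2 of the 37 higher and 1 lower. By limma over all libraries 2 fell (5.41%, beside 2.01% of all genes). Ush1c, the harmonin scaffold of the links between microvilli, was found at 157, 116 and 120.4 FPKM in controls and at 51.1, 48.3, 53.3 and 69 FPKM in MYO5B-knockouts (log2 fold change -1.24, SE 0.23, limma's adjusted p = 0.0286), and Espn, which bundles actin, changed by -1.61 (limma's adjusted p = 0.0432, 0.0733 in the 8-library fit).

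Junction and cytoskeletal genes rose at a few members. Cldn2, the cation-selective pore claudin of crypts, was found at 7.88, 12.7 and 8.93 FPKM in controls and at 44.7, 119, 106 and 73.3 FPKM in MYO5B-knockouts (log2 fold change 3.05, SE 0.42, limma's adjusted p = 0.0081). Of 39 junction and adhesion genes, 2 rose and 32 were on the positive side. Of 37 keratins and cytoskeletal genes, 6 rose (16.2%) and 0 fell by limma. Capg, an actin-capping protein, was present at 23.5, 12 and 7.83 FPKM and 175, 186, 127 and 157 FPKM (log2 fold change 3.61, SE 0.37, limma's adjusted p = 0.00154). Gsn, or gelsolin, which severs actin, rose by 2.48, Actn1, an actin cross-linker, by 2.17, and Lmna, the nuclear lamin A gene, by 1.45. The simple-epithelial keratins Krt23 and Krt7 rose by 2.56 and 1.44. Lmna was not called by edgeR (adjusted p = 0.0946) or after median-ratio scaling (adjusted p = 0.0978), and Krt23 was not called in the 8-library fit (adjusted p = 0.0592) or after that scaling (adjusted p = 0.0562). The list held 1.59% ± 0.261 of summed FPKM in control and 2.43% ± 0.272 in MYO5B-knockout mice.

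The fetal-like and regenerative list had the most called genes, 13 of 53 tested (24.5%), all higher. It took 0.384% ± 0.0543 of summed FPKM in control and 0.962% ± 0.158 in MYO5B-knockout mice. Plaur, the urokinase receptor of migrating cells, was found at 1.17, 2 and 1.72 FPKM in controls and at 27.6, 29.6, 21.5 and 32.4 FPKM in MYO5B-knockouts (log2 fold change 4.03, SE 0.30, limma's adjusted p = 0.000292). Plat, tissue plasminogen activator, which acts in the same proteolytic system, rose by 4.88 (limma's adjusted p = 0.00323). Sprr1a, a cornified envelope protein induced in injured gut, was present at 5.73, 4.43 and 2.76 FPKM and 74.7, 99.2, 30.4 and 47.6 FPKM (log2 fold change 3.76, SE 0.42, limma's adjusted p = 0.0027). Limma did not call the 40 remaining members, 14 of them on the negative side, while the 8-library fit called 17 of the 53 higher and 1 lower, and DESeq2 called 19. Annexins, which bind membranes in the presence of calcium, had the highest median, 1.57 over 11 genes, with 10 higher and 4 called. Beside Anxa10 these were Anxa3 (2.87), Anxa5 (2.12) and Anxa9 (3.01), whose locus overlaps Fam63a and which edgeR did not call (adjusted p = 0.0837). Lists share members: Anxa3 and Anxa10 stand in both. Of the called fetal-like and regenerative genes, Areg, Ereg and Btc also stand in the EGF family list described next. Krt7 also counts among the keratins and Mboat1 among the lysophospholipid acyltransferases, so these lists are not separate counts.

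Of 42 genes of the EGF family, MAP kinase feedback and the immediate early response, 6 rose, among them 3 ligands of the EGF receptor. The list's median was 0.57, with 31 genes on the positive and 11 on the negative side. Areg, or amphiregulin, was found at 12.5, 19.9 and 17.3 FPKM in controls and at 130.5, 341, 188 and 204 FPKM in MYO5B-knockouts (log2 fold change 3.64, SE 0.34, limma's adjusted p = 0.00129). Ereg, or epiregulin, was present at 0.0438, 0.141 and 0.428 FPKM and 8.74, 12.2, 8.37 and 5.36 FPKM (log2 fold change 5.0, SE 0.48, limma's adjusted p = 0.00129), and Btc, or betacellulin, rose by 2.57 (limma's adjusted p = 0.0274). The targets called were Etv4 and Etv5, transcription factors induced by MAP kinase signalling, and Spry4, an inhibitor of that pathway. Etv4 was present at 0.945, 0.624 and 0.334 FPKM and 11.6, 16.9, 6.44 and 3.72 FPKM (log2 fold change 3.60, SE 0.57, limma's adjusted p = 0.0146), Etv5 rose by 3.01 (adjusted p = 0.0735 by edgeR) and Spry4 by 2.80. The share called was 14.3%, and the 8-library fit called 8 higher and 1 lower.

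Genes of amino acid synthesis and of the response to amino acid shortage, which the transcription factor ATF4 drives, rose: 9 of 44 tested (20.5%), with 38 of 44 on the positive side and a median of 1.29. Serine synthesis was represented by Phgdh and Psat1. Psat1 was found at 1, 2.56 and 1.51 FPKM in controls and at 10.9, 33.1, 21.8 and 15.4 FPKM in MYO5B-knockouts (log2 fold change 3.49, SE 0.48, limma's adjusted p = 0.00852), and Phgdh rose by 2.53, without a call by edgeR (adjusted p = 0.0619). Asns, which makes asparagine, was present at 6.69, 10.9 and 9.46 FPKM and 29.1, 73.9, 46.2 and 45.7 FPKM (log2 fold change 2.37, SE 0.35, limma's adjusted p = 0.00959). No knockout overlapped a control for either, as in all 316 called genes and in 17.2% of all genes tested. The folate enzyme gene Mthfd1l rose by 3.10, the amino acid transporter gene Slc38a2 by 2.20, and Eif4ebp1, a brake on cap-dependent translation, by 2.56. Chac1, which breaks down glutathione, was present at 0.277, 0.476 and 0.174 FPKM and 1.84, 39.8, 8.07 and 5.5 FPKM (4.30, limma's adjusted p = 0.0377), with MYO5B-knockout mouse 5 far above the others. The 8-library fit called 11 higher and 1 lower.

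Genes of ribosome biogenesis were higher in MYO5B-knockout mice. Of 38 genes, 37 were on the positive side, with a median of 1.35, and 9 rose (23.7%). Npm1, the nucleolar chaperone nucleophosmin, was found at 50.8, 100.2 and 87.9 FPKM in controls and at 297, 483, 329.8 and 261 FPKM in MYO5B-knockouts (log2 fold change 2.12, SE 0.33, limma's adjusted p = 0.014). Ncl, or nucleolin, rose by 1.89 (limma's adjusted p = 0.0241). Npm3, Bysl, Gar1, Wdr43 and Nop56, all of ribosome assembly, rose by 1.25 to 1.66, and Eif4e, the cap-binding factor, by 1.34. In the 8-library fit 10 were called, but not Gar1 or Wdr43 (adjusted p = 0.0534 and 0.0766), and edgeR called 7, but not Gar1, Wdr43 or Nop56 (adjusted p = 0.133, 0.0567 and 0.0944). The list took 0.0969% ± 0.0213 of summed FPKM in control and 0.275% ± 0.0768 in MYO5B-knockout mice. Cytosolic ribosomal protein genes were on the positive side in 49 of 49 cases with a median of 0.69, and 0 were called by limma (12 at an unadjusted p under 0.05, 0 by edgeR and 2 by DESeq2). They depended on the library. Rplp1, the most abundant, was present at 8981 FPKM in control mouse 2 and 25132 FPKM in MYO5B-knockout mouse 3, against 1862 to 3749 FPKM in the other 5 libraries compared.

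Cell cycle genes lay on the positive side in most cases, 41 of 43 of S phase (median 1.21) and 45 of 46 of mitosis (median 1.35), but limma called 1 of each. At an unadjusted p under 0.05 there were 24 and 30, edgeR called 1 and 0, and DESeq2 10 and 15. Rrm2, the regulated subunit of ribonucleotide reductase, was found at 7.06, 8.5 and 5.76 FPKM in controls and at 52.3, 63.2, 45.6 and 37.1 FPKM in MYO5B-knockouts (log2 fold change 2.78, SE 0.42, limma's adjusted p = 0.0112). Cenpa, the centromeric histone H3, rose by 1.45 (limma's adjusted p = 0.0438) and passed neither in the 8-library fit (adjusted p = 0.0673) nor by edgeR (adjusted p = 0.0888). Pcna, the sliding clamp, was present at 45.3 ± 24.6 and 97.8 ± 29.3 FPKM, and Ube2c, of the anaphase-promoting complex, at 28.7 ± 16.7 and 58.2 ± 30.4 FPKM. The groups did not overlap for 17 of 43 S phase and 25 of 46 mitotic genes, beside 17.2% of all genes. Of 32 p53 targets and cell death genes, 1 was called. Sesn1, a sestrin that restrains mTORC1, changed from 33.4 ± 6.04 to 6.55 ± 2.07 FPKM (log2 fold change -2.36, SE 0.31, limma's adjusted p = 0.0061), while Cdkn1a, the canonical p53 target, was present at 158 ± 43.7 and 183 ± 42.7 FPKM.

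Lipid synthesis rose at a few steps. Of 37 genes of cholesterol and fatty acid synthesis, 32 were on the positive side (median 0.90) and 3 rose. Scd2, a fatty acid desaturase, was found at 3.54, 4.07 and 2.52 FPKM in controls and at 9.4, 45.3, 14.7 and 15.4 FPKM in MYO5B-knockouts (log2 fold change 2.38, SE 0.51, limma's adjusted p = 0.0448), highest in MYO5B-knockout mouse 5. Acat2, of the first step of cholesterol synthesis, rose by 1.43, without a call by edgeR (adjusted p = 0.0715) or after median-ratio scaling (adjusted p = 0.0928). Enzymes that acylate lysophospholipids went both ways, with Mboat1 (5.43) and Lpcat4 (2.71) higher and Agpat3 (-1.35) lower among 31 tested. In glycolysis the entry points rose: Slc2a1, the glucose transporter GLUT1, was present at 2.19, 5.08 and 4.03 FPKM and 14.9, 30.6, 19.7 and 25.8 FPKM (log2 fold change 2.59, SE 0.35, limma's adjusted p = 0.0081), and Hk1, hexokinase 1, rose by 2.72. Limma, edgeR and the 8-library fit each called 2 of the 28 genes. Of arginine and nitric oxide enzymes, Ddah1, which degrades an inhibitor of nitric oxide synthase, was present at 0.0722, 0.224 and 0.379 FPKM and 8.1, 17.2, 13.3 and 13.3 FPKM (log2 fold change 5.40, SE 0.43, limma's adjusted p = 0.000508), and Ass1, of arginine synthesis, rose by 3.36. Limma called these 2 of 22, the 8-library fit 4 higher and 1 lower, and DESeq2 6.

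Among organelle genes the shares called were 3.12% of 32 endoplasmic reticulum genes and 5% of 40 lysosomal genes, beside 2.01% of all genes. Of the former 1 rose, Ero1l, an oxidase of protein folding, by 1.5 (limma's adjusted p = 0.0209), while the abundant chaperones Calr and P4hb were present at 332 ± 47.1 and 1149 ± 123 FPKM in control and 416 ± 185 and 1222 ± 288 FPKM in MYO5B-knockout mice. Of the latter 2 rose, the beta-glucuronidase gene Gusb (2.17) and the legumain gene Lgmn (2.14), and neither was called by edgeR (adjusted p = 0.0558 and 0.0862). None of 18 circadian clock genes was called by limma (4 at an unadjusted p under 0.05, 1 by edgeR and 5 by DESeq2, beside 2764, 443 and 1854 of all 15729 genes). Bhlhe40 and Usp2, the most abundant, were present at 21 ± 4.92 and 22.5 ± 9.71 FPKM in control and 29.5 ± 1.12 and 8.25 ± 2.34 FPKM in MYO5B-knockout mice. The 8-library fit called 4 of the 18 lower.

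Antigen presentation and interferon genes were lower in MYO5B-knockout mice. Of 16 genes of MHC class II presentation, 3 fell and 0 rose by limma (median -1.22). H2-Ab1, a class II beta chain that enterocytes and immune cells express, was found at 566, 1129 and 1083 FPKM in controls and at 55.2, 21.4, 80.9 and 295 FPKM in MYO5B-knockouts (log2 fold change -3.60, SE 0.74, limma's adjusted p = 0.0392). H2-Eb1 and H2-DMa changed by -3.52 and -3.17. MYO5B-knockout mouse 7 had the highest level of H2-Ab1 among the knockouts and also the highest sum of T lymphocyte markers, 151 FPKM. None of the 3 was called in the 8-library fit (H2-Ab1 adjusted p = 0.0683). Of 50 interferon response and MHC class I genes, 45 were lower (median -1.46) and 4 fell. Ifi27l2b, an interferon-induced mitochondrial protein, was present at 988, 1029 and 1060.4 FPKM and 112, 168, 299.5 and 220.4 FPKM (log2 fold change -2.45, SE 0.41, limma's adjusted p = 0.02), and its relative Ifi27 fell by 2.31 (limma's adjusted p = 0.00897). Tapbp, which loads peptide on class I molecules, and H2-T3, a nonclassical class I molecule of the gut that binds CD8, changed by -2.20 and -2.69, without a call in the 8-library fit (adjusted p = 0.0599 and 0.073). The T lymphocyte markers Gzma and Cd7 changed by -3.18 and -2.74, and the B cell and plasma cell markers Igkc, Cd79a and Mzb1 by -3.34, -3.16 and -3.88. Of these, Gzma, Cd7 and Mzb1 were not called in the 8-library fit (adjusted p = 0.0796, 0.0778 and 0.0679), and Igkc was not called by edgeR (adjusted p = 0.0661). The part of lymphocytes in the lower MHC and interferon genes was not tested.

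**Figure D4:**
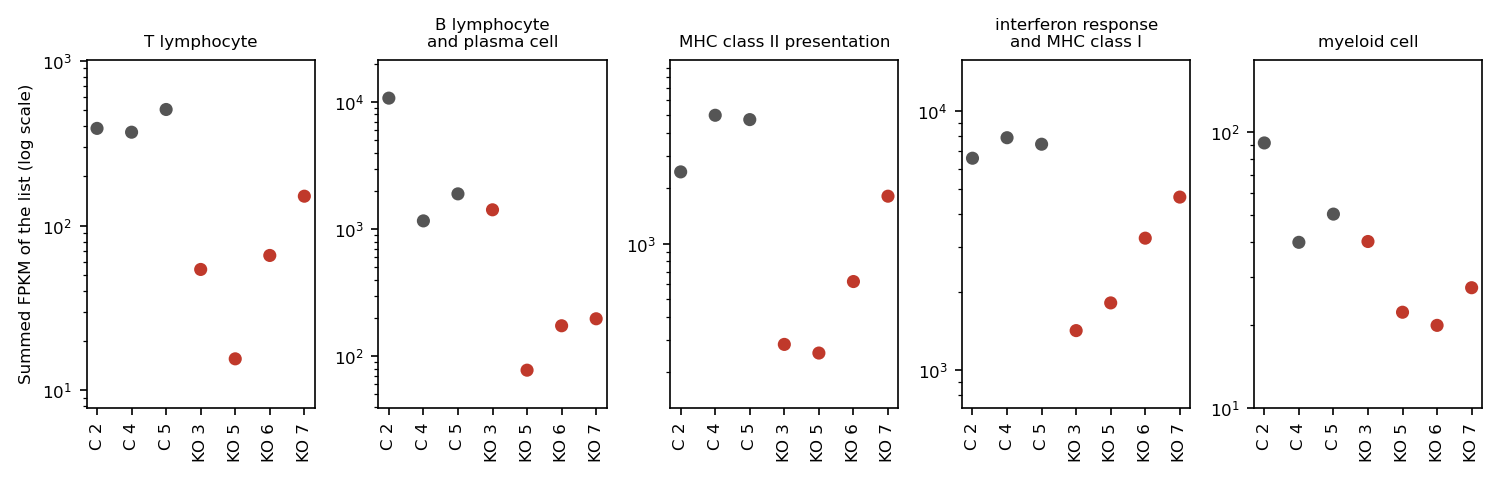
Summed FPKM, on a log scale, of 5 gene lists in control mice (C, grey) and MYO5B-knockout mice (KO, red). The T lymphocyte, MHC class II and interferon sums of every MYO5B-knockout mouse lie below every control mouse, while for B lymphocytes and plasma cells MYO5B-knockout mouse 3 lies at 1422 FPKM, above control mouse 4 at 1163 FPKM.

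Secreted defence changed at single genes. Reg1, a C-type lectin, was found at 144, 1483 and 907 FPKM in controls and at 8.91, 40.9, 45.1 and 50.3 FPKM in MYO5B-knockouts (log2 fold change -4.26, SE 0.82, limma's adjusted p = 0.0323). Mbl2, mannose-binding lectin of the complement system, was present at 27.8, 31.4 and 41.5 FPKM and 0, 0.316, 0.178 and 0.644 FPKM (log2 fold change -6.77, SE 0.67, limma's adjusted p = 0.00132). Those 2 of 30 tested were called, and the list's median was -0.04. Among chemokines and cytokines, Ccl20, which attracts lymphocytes and dendritic cells to the epithelium, fell from 35.2 ± 32.9 to 1.99 ± 0.616 FPKM (-3.73, limma's adjusted p = 0.0174). Ccl6 changed by -2.77 and Tnfsf10, the death ligand TRAIL, by -3.13 (adjusted p = 0.073 in the 8-library fit). Limma called these 3 of 47 lower, edgeR 5 and the 8-library fit 5, and DESeq2 called 9. None of 37 NF-kB genes was called by limma (8 at an unadjusted p under 0.05, 0 by edgeR and 6 by DESeq2, beside 2764, 443 and 1854 of all 15729 genes). The receptor genes Ltbr and Tnfrsf1a were present at 115 ± 10.6 and 68.6 ± 41.6 FPKM in control and 106 ± 11.5 and 78.3 ± 47.2 FPKM in MYO5B-knockout mice.

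**Figure D5:**
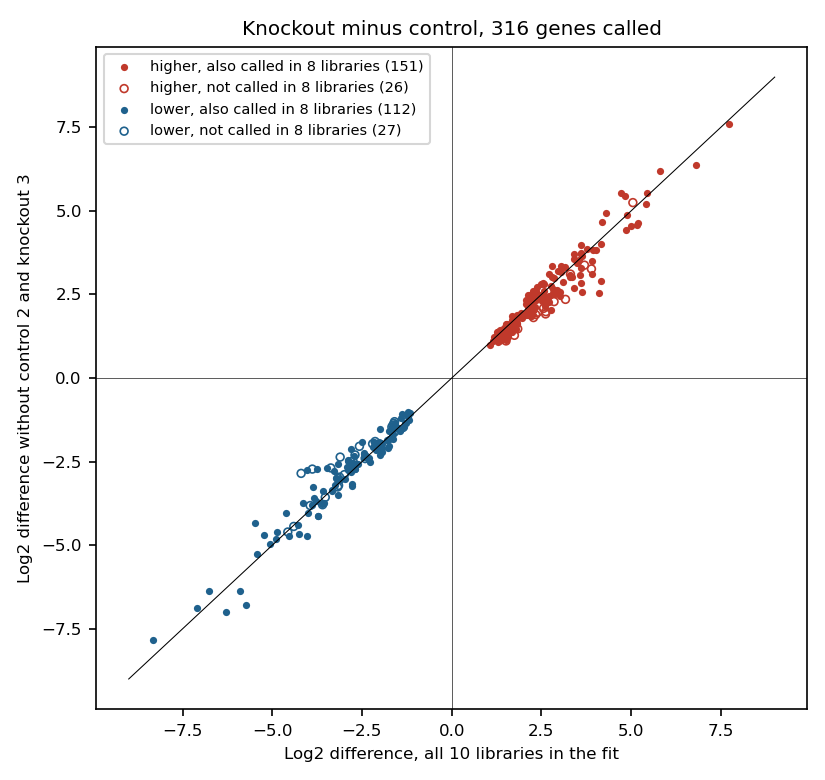
Each point is one of the 316 called genes, with the log2 difference between MYO5B-knockout and control mice over all libraries on the x axis and that of the 8-library fit on the y axis. Filled points were called in both fits, 151 higher and 112 lower, open points (26 and 27) over all libraries only, and the line marks equal values.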

How the data were processed

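RNA of jejunal epithelial cells was sequenced from 10 mice, and the 3 control and 4 MYO5B-knockout libraries were compared. The authors deposited FPKM per gene (fragments scaled by gene length and library size), made from read counts. The submitters' processing notes name STAR 2.5, TopHat, HTSeq 0.6.1, DESeq2 and the GRCm38 (mm10) genome. Strand use in counting and scaling between libraries are not given in the sources used here. Tables of the authors' own comparisons (fold changes and p-values) and of pathway enrichment were deposited too and not used, except for 63 read counts of 9 genes. Multiplied by gene length, 100% of FPKM values above 0 were whole multiples of one step (within 0.05 reads), and the reads recovered this way equalled the deposited counts in 63 of 63 cases. Those counts were of MYO5B-knockout and LPA libraries, so recovered reads of control mice were not compared with counts. edgeR called 443 genes on the recovered reads. Groups were taken from the labels.

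The log2 of FPKM + 0.1 was tested for genes averaging 0.1 FPKM or more (19546 genes lay below), in one limma model (3.58.1, R 4.3.3) of the 3 groups with a trended variance, two-sided, with Benjamini-Hochberg adjustment, and genes were called at an adjusted p of 0.05. Fold changes are MYO5B-knockout minus control. edgeR 4.0.16 (quasi-likelihood) and DESeq2 1.42.0 were run on the recovered reads as alternatives, beside other pseudocounts, filters and scalings and each mouse left out. Leaving out control mouse 2 and MYO5B-knockout mouse 3 (the 8-library fit) and a covariate for these 2 libraries were chosen after seeing the data. So was leaving out the libraries with high Xist and no reads on the Y chromosome genes. The scripts were tested on simulated data.

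Of 1453 genes in 38 functional and 15 cell type lists, 1448 were matched by symbol. The members and lists were chosen with earlier results of these data known, so lists are described by counts and medians, without a set test. Named genes are Myo5b, the 15 largest rises and 15 largest falls with at least 1 FPKM in the higher group (predicted genes left out), up to 8 called members of each list, its 2 most abundant members as values only where fewer than 2 were called, the 10 most abundant called genes and called cell type markers. The genes of the closing section were chosen after their values were seen, as was Slc5a11 among the promoters. A few genes that the rule names are not reported here. Promoters were matched by symbol. A read on 1 kb is worth 0.0443 to 0.0913 FPKM in the 7 libraries. The p-values set the difference between groups against the spread between mice, which limma estimated with the LPA mice included.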

Additional observations from a re-analysis of the deposited data

Results flagged for a closer look

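In groups of 4, a library is singled out when its gap to the nearest other relative to the group's range exceeds Dixon's critical value, which chance alone does in about 1 of 20 groups. Among the 4 MYO5B-knockout mice, mouse 3 stood apart in genes detected (12601), in the share of reads on mitochondrial genes (18.0%) and in Xist (8.41 FPKM). Of the 141 genes examined (Myo5b and the called genes named), 14 were singled out, 8 of them for mouse 5, 2 for mouse 3, 3 for mouse 7 and 1 for mouse 6. MYO5B-knockout mouse 5 was the highest for Anxa10 (56.3 FPKM), Plat (10.8 FPKM), Anxa3 (22.95 FPKM), Chac1 (39.8 FPKM), Eif4ebp1 (167 FPKM), Eif2s2 (79.3 FPKM), Scd2 (45.3 FPKM) and Cyp3a25 (8.53 FPKM). It also had the lowest sum of T lymphocyte markers, 15.5 FPKM. MYO5B-knockout mouse 3 was the lowest for Cyp2c68 (1.06 FPKM) and the highest for Cyp4f13 (27.3 FPKM). MYO5B-knockout mouse 7 was the highest for Gsdmc4 (2.11 FPKM) and Gsdmc2 (1.52 FPKM) and the lowest for Tars (54.1 FPKM). For Ighv9-3, an immunoglobulin segment, mouse 6 had 0.139 FPKM, which is 1 read, and the other 3 had 0. With 3 values of 0, any read is singled out by this rule.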

How the results depend on the processing

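No gene of the 316 changed direction under any alternative, whereas their number depended on nearly every choice. Because the ranges of the groups were apart in all 316, leaving out mice or changing the pseudocount or filter could not turn a direction. The kept direction is no sign of stability there. It was 188 (105 higher, 83 lower) without a filter on low values, 598 with median-ratio scaling (375 lower), 804 with quantile normalization (366 and 438), 50 with only the 7 libraries compared (28 and 22) and 1854 with DESeq2 (817 and 1037). A pseudocount of 1 FPKM gave 213 lower genes and edgeR gave 264. It was 778 in the 8-library fit (403 and 375) and 2449 when these 2 libraries were marked by a covariate (1479 and 970). With each mouse left out the count lay between 44 (control mouse 5 omitted) and 403 (MYO5B-knockout mouse 3 omitted), from 30 to 250 higher and from 14 to 153 lower. It was 79 without control mouse 4, and 73, 99 and 170 without MYO5B-knockout mice 5, 6 and 7. The cause of these differences in number was not tested. Of the 140 called genes that are named, 31 to 119 kept their call with a mouse left out, 113 did so by edgeR and 118 in the 8-library fit.

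Myo5b stayed lower throughout. It passed the threshold after median-ratio scaling (-1.25), quantile normalization (-1.17), with edgeR (-1.22), DESeq2 (-1.24), in the 8-library fit (-1.15) and under the covariate (-1.002), and leaving out each mouse gave log2 fold changes from -1.22 (without control mouse 2, adjusted p = 0.0482) to -0.75. The medians of 27 of the 38 functional lists kept their sign under all 19 alternatives. Those of cholesterol and bile acid transport, fat oxidation, salt transport, micronutrient absorption, purine handling, enterocyte transcription factors, glycolysis, lysosome, NF-kB, antimicrobial lectins and the circadian clock did not. No paired analysis was possible because 5 is the only mouse number that both groups have. Depth limits genes near 0.1 FPKM, where a library holds a few reads. Leaving out the 2 libraries with high Xist and no reads on the Y chromosome genes again gave 316 genes, of which 194 were the same.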

Other observations

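Of the 316 called genes, 115 that rose and 99 that fell stood in none of the functional lists. The genes named in this section were chosen after their values were seen. Tead4, a transcription factor that binds DNA for YAP, was present at 0.0194 ± 0.0186 FPKM in control mice and 1.4 ± 0.45 FPKM in MYO5B-knockout mice (SD, n = 3 and 4; 3.61, limma's adjusted p = 0.00516). Mecom, a zinc finger transcription factor, rose by 2.37 on the log2 scale and Phlda2, an imprinted growth regulator of the placenta, by 3.06. Barx2, a homeobox factor, changed from 76.2 ± 7.96 to 7.01 ± 6.99 FPKM (-3.90, limma's adjusted p = 0.0138). Ctse, the gastric protease cathepsin E, rose by 3.92, and the calpains Capn2 and Capn8, calcium-dependent proteases, rose by 2.97 and 2.21. Eif2s2, a subunit of initiation factor 2, rose by 1.71, and the tRNA synthetase genes Hars and Tars rose by 1.08 and 1.19, of which neither was called by edgeR (adjusted p = 0.113 and 0.171). The mitochondrial chaperonin gene Hspd1 rose by 1.40 and the cytokine gene Mif by 1.69, again without a call by edgeR (adjusted p = 0.0613 and 0.113). Fkbp5, a chaperone induced by glucocorticoids, was present at 13 ± 7.3 and 63.4 ± 26.8 FPKM (2.39, limma's adjusted p = 0.0438, 0.0537 in the 8-library fit).

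Among the genes that fell, Tgfbi, a matrix protein induced by TGF-beta, was present at 108 ± 21.6 FPKM in control and 13.2 ± 5.82 FPKM in MYO5B-knockout mice (-3.11, limma's adjusted p = 0.00323). Aoc1, the diamine oxidase that degrades histamine, changed from 193 ± 64 to 18.5 ± 15.4 FPKM (-3.82, limma's adjusted p = 0.0283), Dao, which oxidizes D-amino acids, from 23.6 ± 4.11 to 2.52 ± 0.9 FPKM (-3.24, limma's adjusted p = 0.00373), and Slc5a11 from 64.3 ± 23.5 to 5.07 ± 3.09 FPKM (-3.78, limma's adjusted p = 0.00852). Trbc2, a constant gene of the T cell receptor, changed by -2.89, Il2rg, the common cytokine receptor chain of lymphocytes, by -2.89 (adjusted p = 0.0778 by edgeR), Lag3, a checkpoint receptor of T cells, by -3.22, and H2-T23, a nonclassical class I molecule, by -2.14. The summed T lymphocyte markers were lower in the same mice, and their part in these values was not tested.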
